A study of Homo sapiens with 12 samples.

Results

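GDF15, STC1 and STC2 are 3 genes that encode secreted hormones of cell stress, and they were followed here across 4 siRNA groups of RCC4 cells. They were taken as the genes whose symbols the array annotation pairs with a probe set on its own, which gave 3 of 11963 measured genes and 7 of 22277 probe sets. GDF15 had 2 probe sets, STC1 had 3 and STC2 had 2. The 3 genes were picked with their values on these same arrays already known, across all 4 groups, so their values are given as descriptions and no p-value is attached to them.

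RCC4 is a human clear cell renal cell carcinoma line that lacks functional VHL, so that hypoxia-inducible factors stay active in it under normal oxygen. The cells were transfected for 72 h with 40 pmol of siRNA against MESH1 (siMESH1), against ATF4 (siATF4), against both (siMESH1+siATF4), or with a non-targeting control (siNT), and each group had 3 arrays labelled as biological replicates. MESH1, encoded by HDDC3, is a cytosolic phosphatase of NADPH, and ATF4 is the transcription factor at the centre of the integrated stress response. A single siRNA sequence was used against MESH1 and a pool against ATF4, so an effect of the silenced gene and an effect of the siRNA itself cannot be told apart on these arrays. Whole-culture RNA was hybridised, in which fewer cells that make a transcript and less of it per cell cannot be told apart.

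GDF15 is a distant member of the TGF-beta superfamily that circulates and signals through the brainstem receptor GFRAL with its co-receptor RET, and its transcription is known to respond to the integrated stress response and to p53. STC1 and STC2 are stanniocalcins, glycoprotein hormones first described in fish as regulators of calcium and phosphate. In mammals they act mainly close to the cell that secretes them, bind and inhibit the protease PAPP-A, and so hold insulin-like growth factors on their binding proteins. Both are known to be inducible by hypoxia, and STC2 also by endoplasmic reticulum stress.

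The deposited values are log2 signals from which the mean of the 3 siNT arrays was subtracted for each probe set, so siNT averages 0 by construction and each value is a log2 difference from siNT. The table holds no level, hence the abundance of 1 gene cannot be set against another, and neither the presence of renal markers nor the absence of other cell types could be read from it. Of 15 leukocyte and endothelial markers 13 were measured, and none of them was called in any of the comparisons by the limma criteria used (5, 3 and 2 of them had an unadjusted p below 0.05 in siATF4, siMESH1+siATF4 and siMESH1 against siNT). ATF4 itself averaged -2.31 in siATF4 and -2.32 in siMESH1+siATF4, and -0.03 in siMESH1, against 0 in siNT (log2, 1 probe set, n = 3 each). MESH1 had no probe set of its own in the annotation used, and its silencing was not analysed here.

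The promoters of GDF15 and STC2 are shown because these genes were both higher in the siATF4 groups than in siNT. Both are the 250 bases upstream of the RefSeq start of the gene on GRCh38.p14, printed 5′ to 3′ along the strand of the gene. The GDF15 window is chr19:18385908-18386157 on the plus strand and the STC2 window is chr5:173328415-173328664 on the minus strand. Capitals mark matches, on either strand, to the motifs named after the sequences.
GDF15: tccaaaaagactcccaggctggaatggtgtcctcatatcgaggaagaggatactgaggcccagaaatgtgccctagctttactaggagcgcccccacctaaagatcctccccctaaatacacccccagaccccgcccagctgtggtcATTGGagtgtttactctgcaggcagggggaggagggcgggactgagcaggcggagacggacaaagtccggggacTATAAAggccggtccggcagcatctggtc
STC2: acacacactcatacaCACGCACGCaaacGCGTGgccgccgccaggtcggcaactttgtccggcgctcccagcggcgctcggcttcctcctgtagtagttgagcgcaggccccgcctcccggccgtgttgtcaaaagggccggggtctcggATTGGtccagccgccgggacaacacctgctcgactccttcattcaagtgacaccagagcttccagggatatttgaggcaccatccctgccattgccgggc

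The letters TGATGNAA, the composite element bound by C/EBP and ATF proteins, were in neither window and in 3.14% of the 35116 RefSeq promoters cut to the same length. ACGTG, the core of a hypoxia response element with A as its first base, was likewise in neither window and in 18.5% of promoters. GCGTG, the same core with G first, occurred 3 times in the STC2 window and not in that of GDF15, with 32.2% of promoters holding it. In STC2 its first bases lay at -235 and -231 on the reverse strand and at -222 on the forward strand, and the reverse-strand matches overlapped each other by a base. Each window held 1 reverse-strand CCAAT box, at -103 in GDF15 and at -100 in STC2, which 32.0% of promoters held on either strand. TATAAA stood at -29 of GDF15 and not in the STC2 window, against 10.7% of promoters. These matches describe letters only, and a window without a match says nothing about elements outside it.

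STC2 had the widest range of the 3 genes. Its values, as means of its probe sets, were 1.29, 1.27 and 1.24 on the siATF4 arrays, 0.87, 0.86 and 0.80 on the siMESH1+siATF4 arrays and -0.34, -0.32 and -0.35 on the siMESH1 arrays, against 0.04, 0.04 and -0.08 on the siNT arrays. All 4 groups stood apart, and no array of 1 group reached the next. On top was siATF4, then siMESH1+siATF4, then siNT, with siMESH1 lowest. Between these neighbours, in the same order, 29.2%, 44.8% and 45.1% of all genes had arrays that did not overlap. The share of genes with all 4 groups apart was not counted. The group means were 1.27 ± 0.03 in siATF4, 0.84 ± 0.04 in siMESH1+siATF4, -0.34 ± 0.02 in siMESH1 and 0 ± 0.07 in siNT (log2, SD, n = 3 each). STC2 was therefore 2.41-fold higher in siATF4 than in siNT and 1.26-fold lower in siMESH1 than in siNT.

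GDF15 shared the higher values in both groups with siATF4, at a smaller size. Its arrays read 0.42, 0.57 and 0.54 in siATF4, 0.34, 0.36 and 0.29 in siMESH1+siATF4 and 0.11, 0.03 and 0.08 in siMESH1, against -0.10, 0.08 and 0.02 in siNT. The order was siATF4, then siMESH1+siATF4, then siMESH1, then siNT, and the last pair of neighbours overlapped. Of all genes 29.2% did not overlap between siATF4 and siMESH1+siATF4, and 42.6% between siMESH1+siATF4 and siMESH1. Group means were 0.51 ± 0.08 in siATF4, 0.33 ± 0.04 in siMESH1+siATF4, 0.07 ± 0.04 in siMESH1 and 0 ± 0.09 in siNT (SD, n = 3 each).

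STC1 was lower than siNT in every silenced group. Its arrays read -0.90, -0.97 and -0.91 in siMESH1+siATF4, -0.93, -0.82 and -0.79 in siMESH1 and -0.45, -0.55 and -0.53 in siATF4, against -0.02, 0.08 and -0.06 in siNT. The siMESH1+siATF4 and siMESH1 arrays overlapped at the bottom, siATF4 lay between them and siNT, and siNT was highest. Of all genes 40.1% did not overlap between siATF4 and siNT, and 29.2% between siMESH1+siATF4 and siATF4. Group means were -0.93 ± 0.04 in siMESH1+siATF4, -0.85 ± 0.07 in siMESH1, -0.51 ± 0.05 in siATF4 and 0 ± 0.07 in siNT (SD, n = 3 each). The spread between replicates, pooled over the 4 groups with 8 degrees of freedom, was 0.0423 for STC2, 0.0611 for STC1 and 0.0661 for GDF15 on the log2 scale. These are spreads of probe set means, and the single GDF15 probe sets varied more. Their SDs in siMESH1 were 0.17 on 221576_at and 0.21 on 221577_x_at, against 0.04 for their mean.

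**Figure D1:**
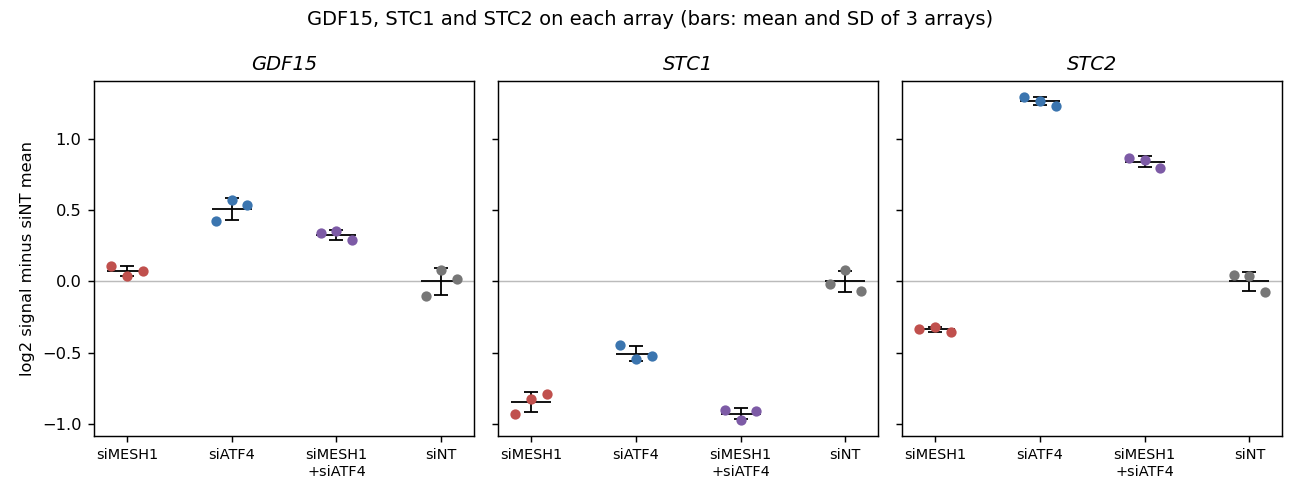
Log2 signal minus the siNT mean (y axis) of GDF15, STC1 and STC2 on each of the 12 arrays, by group (x axis), with bars at the mean and SD of 3 arrays. STC2 spans the groups from -0.34 in siMESH1 to 1.27 in siATF4, GDF15 lies above siNT in both groups with siATF4, and STC1 lies below siNT in all silenced groups.

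Silencing of ATF4 was read against siNT first. STC2 was higher by 1.27 ± 0.05 (log2 difference, SE) and ranked 12 from the highest of 11963 genes. GDF15 was higher by 0.51 ± 0.06, a 1.42-fold difference that ranked 287 from the highest. STC1 was lower, with a difference of -0.51 ± 0.06, also 1.42-fold, which ranked 469 from the lowest. None of the 3 genes had arrays that overlapped with siNT, which held for 40.1% of all genes. The paralogs STC1 and STC2 stood on opposite sides of siNT in the same cells.

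A gene was called where its limma p-value, Benjamini-Hochberg adjusted over 11963 genes, was below 0.05 and its difference reached 0.5 on the log2 scale (1.41-fold). In siATF4 against siNT 6.52% of all genes met both criteria, 2.49% as higher and 4.03% as lower. The split was 298 up and 482 down, and with arrays centred on housekeeping genes it was 396 up and 407 down. GDF15, STC1 and STC2 met both criteria too, which follows in part from how they were chosen. GDF15 and STC1 sat at the edge of the minimum. GDF15 was at 0.49 after centring each array on its median, and at 0.46, 0.48 and 0.50 (0.496) without siNT replicate 1, siATF4 replicate 2 and siATF4 replicate 3. STC1 was at -0.46 after centring on housekeeping genes, and at -0.47, -0.49 and -0.50 (-0.498) without siNT replicate 2, siATF4 replicate 2 and siATF4 replicate 3. STC2 stayed past the minimum in each of these settings. In the comparisons below too, a call of GDF15, STC1 or STC2 describes its value and is not a test.

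The second reading of ATF4 silencing was in cells that also received siMESH1, and it used arrays other than the first. In siMESH1+siATF4 against siMESH1, STC2 was higher by 1.18 ± 0.05, 2.26-fold, and ranked 28 from the highest. GDF15 was higher by 0.26 ± 0.06, 1.19-fold, with no overlap of arrays. STC1 differed by -0.08 ± 0.06 and its arrays overlapped. Of all genes 6.1% were called in this comparison and STC2 alone of the 3 was among them. For all genes 42.6% had arrays that did not overlap between these groups, which is the background for GDF15 and STC2. The GDF15 probe sets gave 0.46 on 221576_at, without overlap, and 0.05 (0.053) on 221577_x_at, where the arrays overlapped. STC2 was thus higher with siATF4 in both backgrounds.

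MESH1 silencing in cells without the siRNA against ATF4 is siMESH1 against siNT. The authors reported more ATF4 protein after MESH1 knockdown in RCC4 cells, which arrays of RNA do not measure. STC1 was lower, with a difference of -0.85 ± 0.06, 1.80-fold, ranked 286 from the lowest. STC2 differed by -0.34 ± 0.05, 1.26-fold, below the minimum for a call though its arrays did not overlap with siNT. GDF15 differed by 0.07 ± 0.06 and its arrays overlapped with siNT. Calls covered 8.19% of all genes in this comparison, with STC1 as the 1 hormone among them, and 45.1% of all genes had arrays that did not overlap. Genes called higher were 2.82% and genes called lower 5.37% of all. These 337 and 643 genes became 797 and 447 with each array centred on housekeeping genes, whose mean was -0.142 in siMESH1, and STC1 was then at -0.71, STC2 at -0.19 and GDF15 at 0.22.

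In cells that also received siATF4, the siRNA against MESH1 went with lower gene means of all 3 genes, though not clearly on every probe set. In siMESH1+siATF4 against siATF4, STC2 differed by -0.43 ± 0.05 (1.34-fold), STC1 by -0.42 ± 0.06 (1.34-fold) and GDF15 by -0.18 ± 0.06 (1.13-fold). As gene means, no array of any of the 3 overlapped between these groups, as for 29.2% of all genes. None of the 3 reached the minimum for a call, which 1.63% of genes did. STC2 and STC1 ranked 206 and 210 from the lowest. GDF15 was at -0.27 ± 0.11 on 221576_at, without overlap, and at -0.09 ± 0.12 on 221577_x_at, where the arrays overlapped. The STC1 probe set 204596_s_at, at -0.06 ± 0.08, overlapped too.

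The combined group against siNT gave STC1 at -0.93 ± 0.06 (1.91-fold lower, ranked 247 from the lowest), STC2 at 0.84 ± 0.05 (1.79-fold higher, ranked 138 from the highest) and GDF15 at 0.33 ± 0.06 (1.26-fold higher). STC1 and STC2 passed both criteria, as a description, and GDF15 did not. In this comparison 9.65% of all genes were called, 4.4% as higher and 5.25% as lower. The arrays of all 3 genes stood clear of siNT here, as did those of 44.8% of all genes. The comparisons with siNT share the same 3 siNT arrays.

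Set against the sum of the single silencings, the combined value was nearest to additive for STC2. Its sum was 0.93 and its combined value 0.84, a departure of -0.09 ± 0.07 (SE). For STC1 the sum was -1.36 and the combined value -0.93, a departure of 0.43 ± 0.08, so the siRNAs together lowered it less than their sum. For GDF15 the sum was 0.58 and the combined value 0.33, a departure of -0.26 ± 0.08. This departure, (siMESH1+siATF4 minus siATF4) minus (siMESH1 minus siNT), was called in 4.31% of all genes and, as gene means, in none of the 3. On the STC1 probe set 204597_x_at alone it was 0.57 ± 0.11 and passed both criteria. It did not on 204595_s_at (0.47 ± 0.11) or 204596_s_at (0.24 ± 0.11). For GDF15 the departure was -0.13 ± 0.16 on 221576_at and -0.38 ± 0.17 on 221577_x_at, with larger SEs than that of the gene mean.

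**Figure D2:**
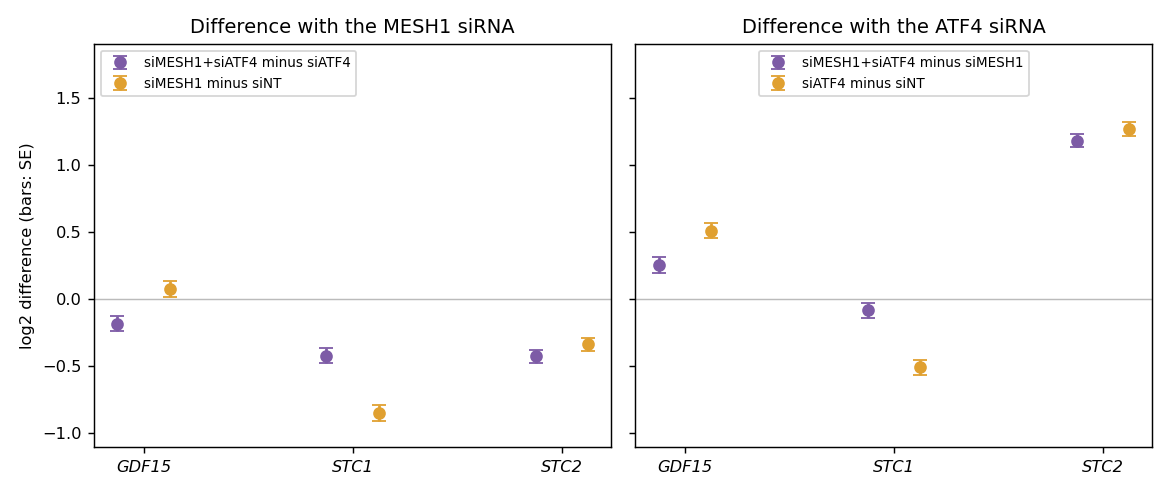
Log2 difference with its standard error (y axis) of GDF15, STC1 and STC2 (x axis) with the siRNA against MESH1, left, and the siRNA against ATF4, right, each in cells with the other siRNA (purple) and without it (orange). STC2 moved by 1.18 and 1.27 with siATF4 and by -0.43 and -0.34 with siMESH1, while the siMESH1 difference of STC1 was -0.42 with siATF4 present and -0.85 without it.

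The probe sets of STC2 gave much the same values. The probe set 203438_at averaged 1.34 in siATF4, 0.96 in siMESH1+siATF4 and -0.38 in siMESH1, and 203439_s_at averaged 1.20, 0.73 and -0.29 in the same groups. By array, 203438_at read 1.35, 1.33 and 1.34 in siATF4, 0.97, 0.96 and 0.94 in siMESH1+siATF4 and -0.40, -0.39 and -0.36 in siMESH1, against 0.03, 0.05 and -0.07 in siNT. On 203439_s_at the arrays read 1.24, 1.22 and 1.14 in siATF4, 0.77, 0.75 and 0.66 in siMESH1+siATF4 and -0.27, -0.25 and -0.35 in siMESH1, against 0.06, 0.02 and -0.08 in siNT. Neither probe set overlapped between any silenced group and siNT, and both kept the order of the groups. The share of all probe sets without such overlap was not counted. Their departures from additivity were 0.00 ± 0.07 (0.0024) and -0.18 ± 0.08, so the near-additive value of STC2 is clearest on 203438_at.

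For STC1, 2 of the 3 probe sets carried the difference. In siMESH1+siATF4, siMESH1 and siATF4 the means were -1.35, -1.20 and -0.72 on 204597_x_at and -1.26, -1.05 and -0.68 on 204595_s_at. On 204596_s_at they were -0.18, -0.30 and -0.12, and its siATF4 arrays overlapped with siNT. By array, 204597_x_at read -1.25, -1.35 and -1.44 in siMESH1+siATF4, -1.35, -1.19 and -1.05 in siMESH1 and -0.67, -0.74 and -0.76 in siATF4, against 0.01, 0.09 and -0.10 in siNT. On 204595_s_at the arrays read -1.30, -1.35 and -1.14 in siMESH1+siATF4, -1.08, -1.13 and -0.93 in siMESH1 and -0.61, -0.66 and -0.77 in siATF4, against 0.01, 0.05 and -0.06 in siNT. The lower STC1 of siMESH1+siATF4 against siATF4 reached the 0.5 minimum on these probe sets and not as the gene mean, at -0.62 ± 0.08 on 204597_x_at and -0.58 ± 0.07 on 204595_s_at, against -0.06 ± 0.08 on 204596_s_at. Averaging over the 3 probe sets therefore gave a smaller STC1 difference than either of the more responsive ones. The suffix _x_at marks probe sets with probes that can bind other transcripts, and leaving it out gave STC1 at -0.72 in siMESH1+siATF4, -0.67 in siMESH1 and -0.40 in siATF4.

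The GDF15 probe sets disagreed in siMESH1. On 221576_at the siMESH1 arrays read -0.30, -0.15 and 0.04, against -0.05, 0.10 and -0.05 in siNT. On 221577_x_at they read 0.52, 0.22 and 0.12, against -0.15, 0.07 and 0.08 in siNT. The near-zero GDF15 mean of siMESH1 is thus the average of a lower and a higher probe set, and its sign rests on which is used. The SE of a difference was 0.11 on 221576_at and 0.12 on 221577_x_at, against 0.06 for the gene mean. In siATF4 both were higher, at 0.62, 0.66 and 0.50 on 221576_at and at 0.23, 0.48 and 0.58 on 221577_x_at, against the siNT values just given. In siMESH1+siATF4 the arrays read 0.43, 0.48 and 0.06 on 221576_at, where replicate 3 overlapped with siNT, and 0.26, 0.24 and 0.52 on 221577_x_at.

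**Figure D3:**
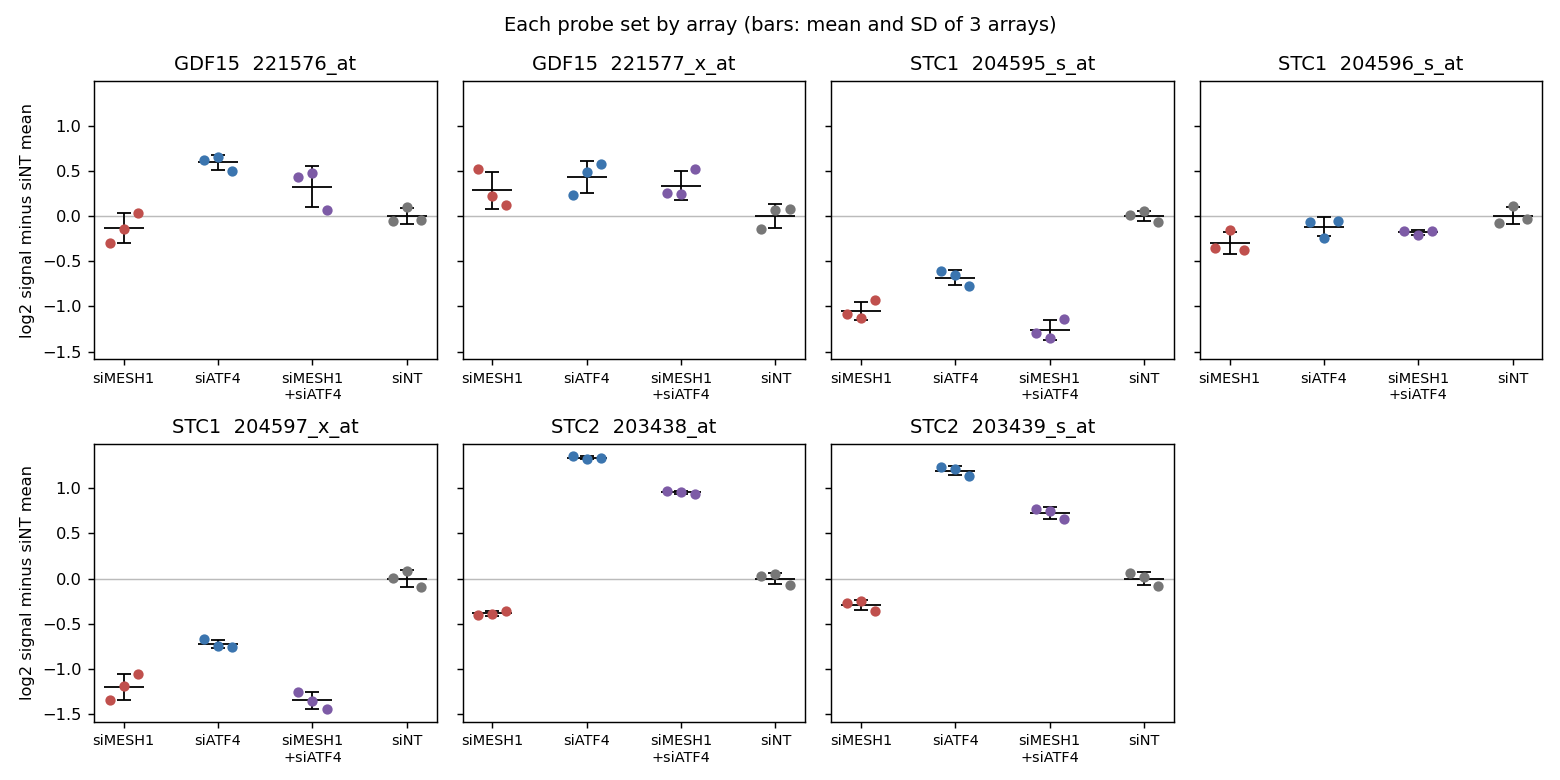
Log2 signal minus the siNT mean (y axis) of each of the 7 probe sets on the 12 arrays, by group (x axis), with bars at the mean and SD of 3 arrays. The STC2 probe sets run together, 204596_s_at of STC1 stays nearer to 0 than the other STC1 probe sets, and the GDF15 probe sets lie on opposite sides of 0 in siMESH1.

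Control probe sets of the arrays also differed between the groups. The ACTB control probe sets, which compare the 3′ with the 5′ end of a transcript, differed by -0.29 ± 0.08 in siATF4, -0.30 ± 0.13 in siMESH1+siATF4 and -0.11 ± 0.15 in siMESH1, against 0 ± 0.06 in siNT (log2, SD, n = 3). The matching GAPDH values were -0.09, -0.02 and 0.08, against 0 in siNT. The 18 hybridisation spike-in probe sets averaged 0.25 ± 0.08 in siATF4, 0.07 ± 0.14 in siMESH1+siATF4 and -0.02 ± 0.04 in siMESH1, against 0 ± 0.06 in siNT. Their part in the values of GDF15, STC1 and STC2 was not tested. The 13 leukocyte and endothelial markers averaged 0.07, 0.03 and 0.03 in siATF4, siMESH1+siATF4 and siMESH1.

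The partners through which these hormones act showed no call in the comparisons with siNT. GFRAL had no probe set of its own. RET, the co-receptor of GFRAL, differed by 0.08 ± 0.08 in siATF4 and 0.09 ± 0.08 in siMESH1 from siNT. PAPPA, the protease that both stanniocalcins inhibit, differed by -0.01 ± 0.06 and 0.01 ± 0.06 in the same comparisons, and PAPPA2 by 0.02 ± 0.09 and 0.11 ± 0.09. IGFBP4, which PAPP-A cleaves, differed by 0.22 ± 0.10 and 0.32 ± 0.10 (limma adjusted p = 0.11 and 0.02), under the minimum. FURIN, a convertase that cuts TGF-beta family precursors, and STIM1, a calcium sensor of the endoplasmic reticulum, differed by under 0.2 in either. The mean of IGFBP5, a further PAPP-A and PAPPA2 substrate, hid a spread among its 5 probe sets from -0.12 to 1.00 in siMESH1+siATF4 against siNT.

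In siATF4 7 of 37 measured ATF4 and integrated stress response targets were called lower than in siNT and 0 higher, with a list median of -0.113 against 0.02 for all genes. Over all genes 4.03% were called lower and 2.49% higher in siATF4. ASNS, which makes asparagine, fell by 1.19 (limma adjusted p = 6.6e-08), NUPR1, a stress-induced chromatin protein, fell by 1.02 (1.7e-07), and MTHFD2, of mitochondrial folate metabolism, fell by 0.88 (6.4e-08). STC2, itself an ATF4 target in other cells, thus stood opposite in sign to every called gene of that list. With arrays centred on housekeeping genes, however, 2 genes of the list were called higher and 6 lower. Under the 0.5 minimum, genes of the list went both ways, and those given here were named after their values were seen. PPP1R15A was at 0.47, DDIT3 at 0.46 and SLC7A5 at 0.42 (limma adjusted p = 4.8e-05, 0.00012 and 8.2e-05). CEBPG and SLC7A11 were both at -0.40 (0.0047 and 0.0014). In siMESH1 the same list had 3 genes called higher and 5 lower, with a median of -0.203 against 0.028 for all genes, and 4 higher and 3 lower with housekeeping centring. Over all genes 2.82% were called higher and 5.37% lower in siMESH1. MTHFD2 fell by 1.25 (1.8e-09) and TRIB3, a pseudokinase, fell by 0.95 (4.8e-08). The genes called higher, named after their values were seen, were KLHL24 at 0.72, CTH, an enzyme of transsulfuration, at 0.70 and CEBPB, a transcription factor, at 0.50 (2.3e-05, 4.5e-05 and 4.7e-06). The authors reported ATF3 and DDIT3, or CHOP, as raised by MESH1 knockdown by qRT-PCR. In siMESH1 on these arrays ATF3 was at 0.36 and DDIT3 at -0.13 (limma adjusted p = 0.0025 and 0.15), neither of them called. Of the endoplasmic reticulum stress genes 0 were called higher and 1 lower of 20 in siATF4, and 1 higher and 1 lower in siMESH1. The list median was 0.074 in siATF4 and -0.244 in siMESH1, against 0.02 and 0.028 for all genes. In either direction, 10 and 14 of the 20 had an unadjusted limma p below 0.05. DERL1 was at -0.70 in siMESH1 and HERPUD1 at 0.51, or 0.48 and under the minimum with arrays centred on their median. Housekeeping centring gave 1 higher and 0 lower in siATF4, and 2 higher and 1 lower in siMESH1, where the median was then -0.102.

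The p53 targets, a group that GDF15 is often counted with, had 5 of 17 called higher and 0 lower in siATF4 and 4 higher and 1 lower in siMESH1. Of all genes 2.49% were called higher and 4.03% lower in siATF4, and 2.82% and 5.37% in siMESH1. The gene called lower in siMESH1 was TNFRSF10B, a death receptor for TRAIL, which fell by 0.81 (limma adjusted p = 9.1e-08). CDKN1A, the cell cycle inhibitor p21, rose by 0.83 in siATF4 and 0.60 in siMESH1 (limma adjusted p = 2.1e-07 and 2.6e-06), and TP53I3, a p53-induced oxidoreductase, by 0.91 and 1.10 (2.4e-07 and 2.5e-08). GDF15 itself was at 0.51 in siATF4 and 0.07 in siMESH1. The list medians were 0.148 in siATF4 and 0.0869 in siMESH1.

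The hypoxia-inducible factor targets had 11 of 32 called lower and 0 higher in siMESH1, with a median of -0.308, and 2 lower and 1 higher in siATF4, with a median of -0.0766. With each array centred on housekeeping genes the siMESH1 count was 6 lower and 1 higher. Over all genes, without that centring, 5.37% were called lower and 2.82% higher in siMESH1, and 4.03% and 2.49% in siATF4. CCND1, cyclin D1, fell by 1.93 in siMESH1 (limma adjusted p = 2.4e-09), CA12, a carbonic anhydrase, by 1.61 (6.9e-10) and ERO1A, an oxidase of the endoplasmic reticulum, by 1.19 (2.3e-07). STC1, at -0.85, and STC2, at -0.34, had the same sign as these genes in siMESH1, and whether they share a cause was not tested. In siATF4 the genes of this list called lower were CCND1, which fell by 0.62 (7.3e-05), and PGK1, of glycolysis, which fell by 0.61 (5.7e-07), and the gene called higher was SLC2A3, a glucose transporter, which rose by 0.66 (5.6e-06). CA12 differed by -0.05 and ERO1A by 0.29 there, with STC1 at -0.51 and STC2 at 1.27.

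Of 19 other secreted stress and growth factors, 6 were called higher and 1 lower in siATF4. In siMESH1 2 were called higher and 2 lower (3 and 2 with housekeeping centring). Of all genes 2.49% were called higher and 4.03% lower in siATF4, and 2.82% and 5.37% in siMESH1. The list medians were 0.129 and 0.0138. IL6 rose by 1.10 in siATF4 (limma adjusted p = 6.8e-08), the value nearest to that of STC2 in this list, and SCG2, a granin, rose by 0.91 (1.1e-05). SCG2 rose by 2.38 in siMESH1 (1.7e-09), where STC2 differed by -0.34 and GDF15 by 0.07. ADM, adrenomedullin, fell by 0.72 in siMESH1 (1.6e-06).

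Among genes of the PAPP-A and insulin-like growth factor axis, 1 of 17 was called higher and 0 lower in siATF4, and 2 higher and 3 lower in siMESH1 (3 and 3 with housekeeping centring). Beside this list and those that follow, 2.49% of all genes were called higher and 4.03% lower in siATF4, and 2.82% and 5.37% in siMESH1. IGF2R, the receptor that clears IGF2, rose by 0.59 in siATF4 (limma adjusted p = 3.1e-05), and IRS2, an adaptor of the insulin receptor, fell by 1.16 in siMESH1 (9.2e-10). Of the TGF-beta family, receptors and convertases, 2 of 41 were called higher and 1 lower in siATF4 and 1 of each in siMESH1 (4 higher and 1 lower with housekeeping centring). BMP6 rose by 0.84 in siATF4 (2.8e-07), the mean of 2 probe sets at 0.17 and 1.51. INHBE, an activin subunit, fell by 0.69 in siMESH1 (0.0014). Calcium and phosphate genes had 1 of 24 called higher and 2 lower in siATF4, and 0 higher and 3 lower in siMESH1 (1 and 2 with housekeeping centring). KL, the co-receptor Klotho, rose by 0.74 in siATF4 (6.3e-05), and ITPR1, a calcium release channel, fell by 0.72 in siATF4 (1.3e-07) and by 1.02 in siMESH1 (3.8e-09).

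**Figure D4:**
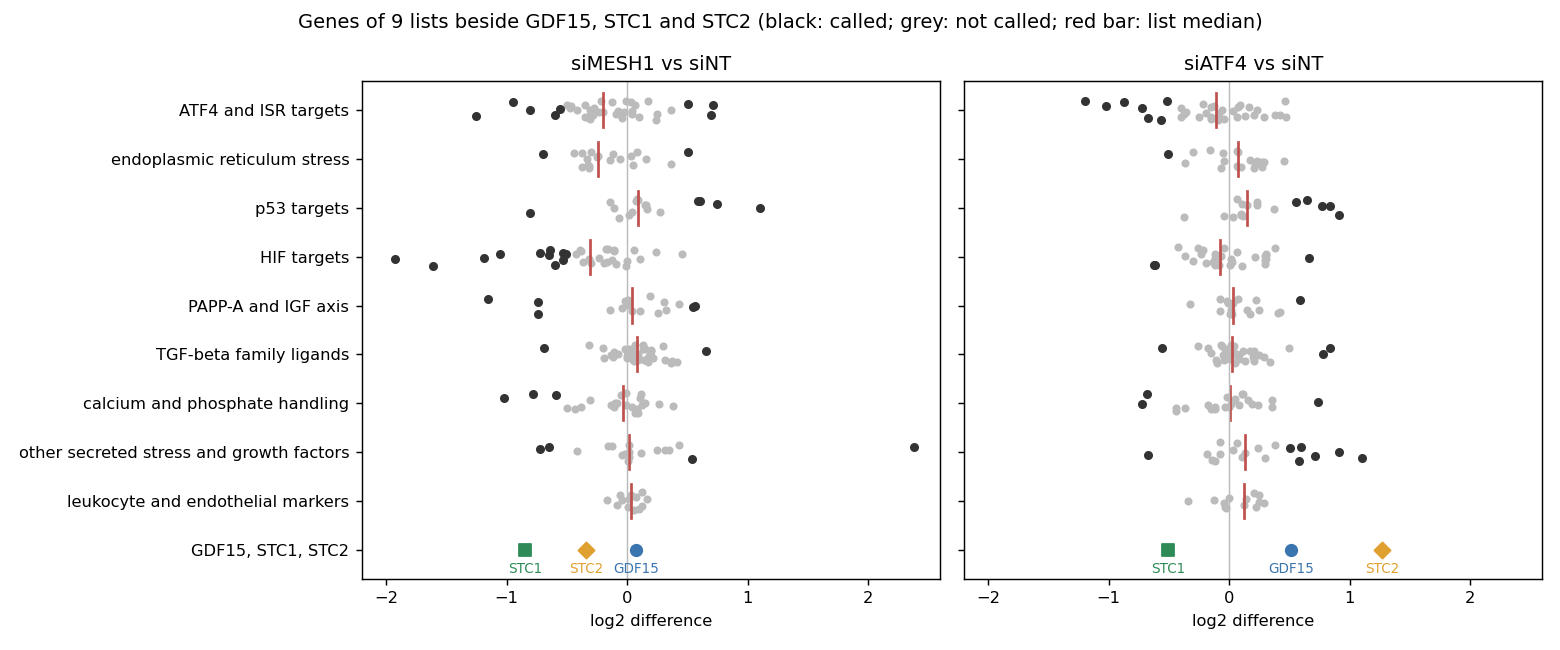
Log2 difference from siNT (x axis) of the measured genes of 9 lists (y axis) in siMESH1 and siATF4, with called genes in black, other genes in grey and a red bar at the list median. In siATF4 STC2, at 1.27, lies to the right of every gene of the lists, and STC1 in siMESH1, at -0.85, lies among the called hypoxia-inducible factor targets.

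The genes whose values ran closest to each hormone over the 12 arrays were found by the root mean square difference on the log2 scale. For STC1 these were ZCCHC10 (0.06), FABP5 (0.0695), PSMC3IP (0.0889), PSMA5 (0.0908) and TEX30 (0.0977). For GDF15 they were CTNNA2 (0.0669), PSG9 (0.0775), CCDC90B and NKIRAS2 (both 0.0871) and TGFBRAP1 (0.0876). For STC2 they were SLC22A4 (0.228), MAP3K7CL (0.234), FLG (0.238), IL6 (0.248) and IFI27 (0.252). By this measure no gene lay as near to STC2 as the leading genes lay to the others. The measure is not scaled to the size of a gene's differences, which ranged widest for STC2. It therefore does not tell a like pattern of another size from an unlike pattern. Between the hormones the difference was 0.506 for GDF15 and STC2, 0.935 for GDF15 and STC1, and 1.28 for STC1 and STC2. GDF15 was the 239th nearest of all genes to STC2 and STC2 was the 10437th nearest to GDF15, ranks that depend on that size as well.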

How the data were processed

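RNA of 12 RCC4 cultures (3 biological replicates, per the labels, in each of 4 siRNA groups) was hybridised to Affymetrix human arrays of 22277 probe sets. The authors normalised the arrays by RMA in Affymetrix Expression Console and deposited log2 values from which the siNT mean of each probe set had been subtracted. RMA sets all arrays to one distribution, so a shift shared by most genes would not be seen. The genome build was not given in the sources used here. Values ranged from -3.77 to 3.41, and precision is limited by the number of arrays.

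Probe sets with 1 gene symbol (19064 of 22277, of which 19052 were matched to current symbols by Entrez identifier) were averaged per gene into 11963 genes. A further 1043 listed several genes and 2164 none, 56 of the last being controls, and 6 more controls carried a symbol, and none of these were used for genes. A mean per group was fitted to all 12 arrays with limma 3.58.1 (lmFit, eBayes) in R 4.3.3, with 8 residual and 4.32 prior degrees of freedom. Genes were called at a Benjamini-Hochberg adjusted p-value below 0.05 and a log2 difference of at least 0.5. The procedure was tested on simulated data. GDF15, STC1, STC2 and all gene lists were chosen with earlier results of these data known. Named beside them were binding partners, up to 3 called genes per list in each of siMESH1 and siATF4 against siNT with the largest differences, up to 2 called in the departure from additivity, and the 5 genes nearest to each hormone. Some genes of the stress response lists were named outside this rule, with their values known. Promoters came from RefSeq (GRCh38.p14), where GDF15 and STC2 were read, and the STC1 promoter was not used here. Alternatives were centring of arrays on their median or on housekeeping genes, other summaries of probe sets, single probe sets, a replicate block, robust variances, fits to the groups compared, each array left out, and the methods' t-test.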

Additional observations from a re-analysis of the deposited data

Results flagged for a closer look

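For GDF15 each siMESH1 array was above the siNT mean, by 0.11, 0.03 and 0.08, though within or near the siNT arrays, which ran from -0.10 to 0.08 and overlapped them, and each siMESH1+siATF4 array, at 0.34, 0.36 and 0.29, was below the siATF4 mean of 0.51. The difference between these effects was -0.26 on the log2 scale, below the minimum for a call, and no p-value is given because GDF15 was chosen with these values known. On 221576_at the siMESH1 mean was -0.14, so that probe set averaged lower with the siRNA against MESH1 in both backgrounds.

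For 17 genes of the lists the effect of the siRNA against MESH1 with siATF4 differed from that without it, by the limma term for the difference (adjusted p below 0.05 over all genes and at least 0.5 on the log2 scale, n = 3 arrays a group), and 12 of these, at most 2 from a list, are given. The difference was 0.70 for MTHFD2, 0.64 for SLC1A4, 0.55 for DERL1, 0.89 for CA12, 0.62 for ERO1A, 0.67 for INHBE and 0.60 for SLC20A1. It was -1.04 for TP53I3, -0.57 for CDKN1A, -0.67 for SMAD7, -1.14 for SCG2 and -0.56 for EDN1. Over single probe sets it ran from -0.011 to 1.05 for SLC1A4 (4 probe sets) and from 0.38 to 1.22 for CA12 (6 probe sets). INHBE lost the call in 10 of the 12 fits that left out an array, DERL1 and SLC20A1 lost it with housekeeping centring (0.44 and 0.49), and the cause was not tested.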

How the results depend on the processing

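No difference of GDF15, STC1 or STC2 that was past the minimum for a call changed its sign under any alternative run. With each array centred on housekeeping genes (mean -0.0845 in siMESH1+siATF4, -0.142 in siMESH1 and -0.0506 in siATF4), the differences of siMESH1 from siNT were 0.22 for GDF15, -0.71 for STC1 and -0.19 for STC2, those of siMESH1+siATF4 were 0.41, -0.85 and 0.93, and STC2 was at 1.32 in siATF4 and at 1.12 in siMESH1+siATF4 against siMESH1. The departures from additivity were then -0.36 for GDF15, 0.32 for STC1 and -0.20 for STC2. Without _x_at probe sets STC1 was at -0.72 in siMESH1+siATF4, -0.67 in siMESH1, -0.40 in siATF4, -0.32 in siMESH1+siATF4 against siATF4 and 0.35 in the departure, and GDF15 took the values of 221576_at. These were -0.14 in siMESH1, 0.59 in siATF4, 0.46 in siMESH1+siATF4 against siMESH1, -0.27 in siMESH1+siATF4 against siATF4 and -0.13 in the departure, while 221577_x_at gave 0.28, 0.43, 0.053, -0.093 and -0.38. The STC1 probe sets 204595_s_at, 204596_s_at and 204597_x_at gave -1.05, -0.30 and -1.20 in siMESH1, -0.68, -0.12 and -0.72 in siATF4, -1.26, -0.18 and -1.35 in siMESH1+siATF4, -0.21, 0.12 and -0.15 in siMESH1+siATF4 against siMESH1, and -0.58, -0.061 and -0.62 in siMESH1+siATF4 against siATF4, with departures of 0.47, 0.24 and 0.57. The STC2 probe sets 203438_at and 203439_s_at gave -0.38 and -0.29 in siMESH1, 1.34 and 1.20 in siATF4, 0.96 and 0.73 in siMESH1+siATF4, 1.34 and 1.02 in siMESH1+siATF4 against siMESH1, -0.38 and -0.47 in siMESH1+siATF4 against siATF4, and 0.0024 and -0.18 in the departure. The probe sets of largest variance were 221576_at, 204597_x_at and 203438_at, with the values just given.

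Counts of called genes moved by over 1.5 times where every one of the 19064 probe sets was tested on its own, to 1706 for siMESH1, 1313 for siATF4 and 1993 for siMESH1+siATF4 against siNT, 1276 for siMESH1+siATF4 against siMESH1, 357 for siMESH1+siATF4 against siATF4 and 855 for the departure (980, 780, 1154, 730, 195 and 516 genes in the report), and for siMESH1+siATF4 against siATF4 with the methods' t-test after Benjamini-Hochberg adjustment (122 genes). Housekeeping centring turned the split of higher and lower calls from 526 and 628 to 777 and 508 in siMESH1+siATF4 against siNT, from 409 and 321 to 333 and 426 in siMESH1+siATF4 against siMESH1, and from 414 and 102 to 288 and 269 in the departure. Replicate numbers did not pair the samples (18 same-numbered pairs, correlations of -0.191 to 0.0951), and a replicate block gave 978, 781, 1154, 730, 195 and 517 calls. With 1 array left out, siATF4 against siNT ran from 0.46 to 0.56 for GDF15, -0.54 to -0.47 for STC1 and 1.23 to 1.29 for STC2. The t-test and the fits to the groups compared were not run for the departure.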
